A study of Mus musculus with 8 samples.

Results

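The 48 genes described here act in the G2 phase of the cell cycle and in mitosis. They were taken as a named list of genes by function, out of 25991 genes with a symbol, and they fall into 9 roles that run from mitotic entry to chromosome structure. All 48 passed the filter on low values in the pre-B cell RNA-seq (a mean of at least 1 TPM over the libraries, TPM being the length-scaled share of a transcript in its library), as did 11837 genes in all. WT mice were Dido1 flE16/+; R26R-EYFP; iCreVav1 littermates, and Dido1∆E16 mice were Dido1 flE16/∆E16; R26R-EYFP; iCreVav1, so both genotypes carry the Cre transgene and a floxed allele, on C57BL/6, and the second allele of the mutant is deleted in every tissue. Cre can act on the floxed allele of WT mice too, whose other allele stays intact. The Vav1 promoter drives the recombinase in hematopoietic cells, where it removes exon 16 of Dido1, the exon that encodes the C-terminal part of the Dido3 protein. The paper's methods state that sex- and age-matched young adult animals were used. A figure legend of the paper gives the mice behind the RNA-seq and ATAC-seq tracks as male and as differing in age. Labels do not give the age of each sample. RNA-seq was made from sorted bone marrow pre-B cells of pooled mice, with 2 libraries per genotype and a gate on surface markers of immature B cells that pro-B cells also meet. ATAC-seq, which reads open chromatin, was made from Lin- Sca1+ cKit+ (LSK) stem and progenitor cells of the same genotypes (2 libraries each). The labels name the tissue of all samples as hematopoietic precursors.

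Mitosis genes are switched on together late in the cell cycle. Cyclin-dependent kinase 1 with its cyclins starts mitosis, spindle and kinetochore proteins align and separate the chromosomes, and the anaphase-promoting complex then marks cyclins for destruction. Their promoters are known to be held silent in resting cells by the DREAM complex and to be turned on by B-Myb and FoxM1 on the MuvB core, which contacts the cell cycle genes homology region (CHR), while the factor NF-Y binds CCAAT boxes. In the bone marrow, large pre-B cells divide after pre-B cell receptor signalling and small pre-B cells are resting. In bulk RNA, fewer dividing cells and less RNA per cell cannot be told apart.

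The promoters of the genes share these letters. RefSeq windows (GRCm38.p6, 250 bases before to 50 bases after a start site) were matched to 41 of the 48 genes, taking the window nearest to the start of the transcript with the highest TPM. For Kif2c and Top2a that window lay 3852 and 13590 bases from this start, and for the others within 247 bases. TTTGAA or TTCGAA, the CHR letters, searched on both strands, were found in 34 of 41 windows (82.9%), against 13.9% of the windows of 8949 tested genes and 19.2% of all 32851 windows. Within 50 bases of the start site they were found in 31 of 41 windows (75.6%), against 3.51% of tested genes and 5.31% of all windows. CCAAT, on both strands, was found in 31 of 41 windows (75.6%), against 39.5% of tested genes and 37.4% of all windows. Both kinds of letters stood in 29 windows (70.7%), against 5.97% of tested genes and 7.52% of all windows. TTCCCGC, a core found in E2F sites of S-phase genes, stood in 1 of 41 windows, that of Ncapg (2.44%), against 8.83% of tested genes and 4.60% of all windows. TTTGAA shares bases with ATTGG, the reverse complement of CCAAT, in Cdca8, and no motifs overlap in the sequences printed here. A match is a description of the sequence and was not tested as a binding site.

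6 of the promoters are shown from 120 bases before to 30 bases after the start site, read 5′ to 3′ on the strand of the gene, with CHR letters and CCAAT letters (or their reverse complements) in capitals. Cdk1 and Ccnb2 encode the kinase and a cyclin of mitotic entry, Ccnf and Cenpa are the genes whose levels differed most and least between the WT libraries, Cdc20 activates the anaphase-promoting complex, and Racgap1 is the gene with a MACS2 promoter peak in both WT and neither Dido1∆E16 LSK library.
Cdk1 (chr10:69352883-69353032, minus strand): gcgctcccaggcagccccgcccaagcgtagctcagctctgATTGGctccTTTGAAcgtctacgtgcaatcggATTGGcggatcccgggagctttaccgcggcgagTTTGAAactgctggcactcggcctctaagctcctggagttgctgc
Ccnb2 (chr9:70421525-70421674, minus strand): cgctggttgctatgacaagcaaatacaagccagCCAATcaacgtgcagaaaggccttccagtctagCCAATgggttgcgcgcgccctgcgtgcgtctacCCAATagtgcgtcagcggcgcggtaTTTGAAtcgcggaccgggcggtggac
Ccnf (chr17:24251380-24251529, minus strand): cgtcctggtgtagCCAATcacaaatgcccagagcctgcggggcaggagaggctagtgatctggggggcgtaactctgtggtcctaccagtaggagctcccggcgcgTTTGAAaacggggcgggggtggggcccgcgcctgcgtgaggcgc
Cdc20 (chr4:118437314-118437463, minus strand): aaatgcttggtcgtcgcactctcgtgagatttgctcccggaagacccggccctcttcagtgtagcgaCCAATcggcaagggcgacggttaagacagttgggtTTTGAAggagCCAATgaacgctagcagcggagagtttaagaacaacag
Cenpa (chr5:30666766-30666915, plus strand): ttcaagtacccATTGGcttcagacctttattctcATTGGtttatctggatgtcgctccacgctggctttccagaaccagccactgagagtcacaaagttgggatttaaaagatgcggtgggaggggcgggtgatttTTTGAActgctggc
Racgap1 (chr15:99651627-99651776, minus strand): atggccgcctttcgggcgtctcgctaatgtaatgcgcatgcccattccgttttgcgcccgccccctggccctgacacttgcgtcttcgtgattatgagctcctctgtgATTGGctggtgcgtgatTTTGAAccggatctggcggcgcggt
In these windows the CHR letters nearest to the start site began 15 bases before it in Cdk1, 14 before it in Ccnf and 18 before it in Cdc20, and at position 5, 6 and 17 after it in Ccnb2, Racgap1 and Cenpa.

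The samples were first checked by the targeted gene. Exon 16, the last exon of the long Dido1 transcript (chr2:180657963-180662583, GRCm38/mm10), had 50.1% and 42.8% of the coverage of the other exons in WT, and 0.911% and 0.198% in the mutant. B-cell identity markers (Cd79a, Cd79b, Ebf1, Pax5, Blnk, Vpreb3, Rag1 and Rag2) summed to between 14917 and 17318 TPM in the 4 libraries, and all 8 were detected in each. Aligned bases in exons ranged from 1121 to 1635 megabases per RNA library, and ATAC-seq tags from 10249256 to 52050898 per LSK library. Of 11837 genes tested with limma on log2(TPM + 1), 3 passed as higher in the mutant (0.0253%) and 3 as lower (0.0253%). A call needed a Benjamini-Hochberg adjusted p below 0.05 with a log2 change of 0.6 or more in size. Labels do not say that replicates came from separate animals beyond the pools, so the p-values measure the spread between these libraries.

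Each of the 48 genes differed more between the WT libraries than between the genotype means. Summed over the genes, the level was 6069 TPM in WT replicate 1 and 1189 TPM in WT replicate 2, while the Dido1∆E16 replicates had 2714 and 3216 TPM. All 48 genes were higher in WT replicate 1 than in WT replicate 2, against 57.9% of all genes tested, 45 of them by at least 2-fold on the log2(TPM + 1) scale, against 8.07%, and 41 by at least 4-fold, against 3.25%. The median difference was 2.85 log2 units for the 48 genes and 0.09 for all genes. WT replicate 1 was the highest of the 4 libraries for all 48 genes, against 28.8% of all genes, and WT replicate 2 the lowest for 47, against 40.0%. Both Dido1∆E16 libraries lay between the WT libraries for 47 of 48 genes, against 21.4% of all genes, and the exception, Kif2c, is listed at 0 in Dido1∆E16 replicate 2. Within the Dido1∆E16 pair, replicate 2 was higher for 44 of 48 genes, against 41.9% of all genes, with a median difference of 0.30 log2 units. The whole order, WT replicate 1 above Dido1∆E16 replicate 2, replicate 1 and WT replicate 2, was shared by 44 of 48 genes, against 7.5% of all genes. With transcripts summed by the authors' symbols only, which leaves 6 of the 48 genes below the filter, 41 of 48 were higher in WT replicate 1 and 38 of 48 had both Dido1∆E16 libraries between the WT libraries.

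**Figure D1:**
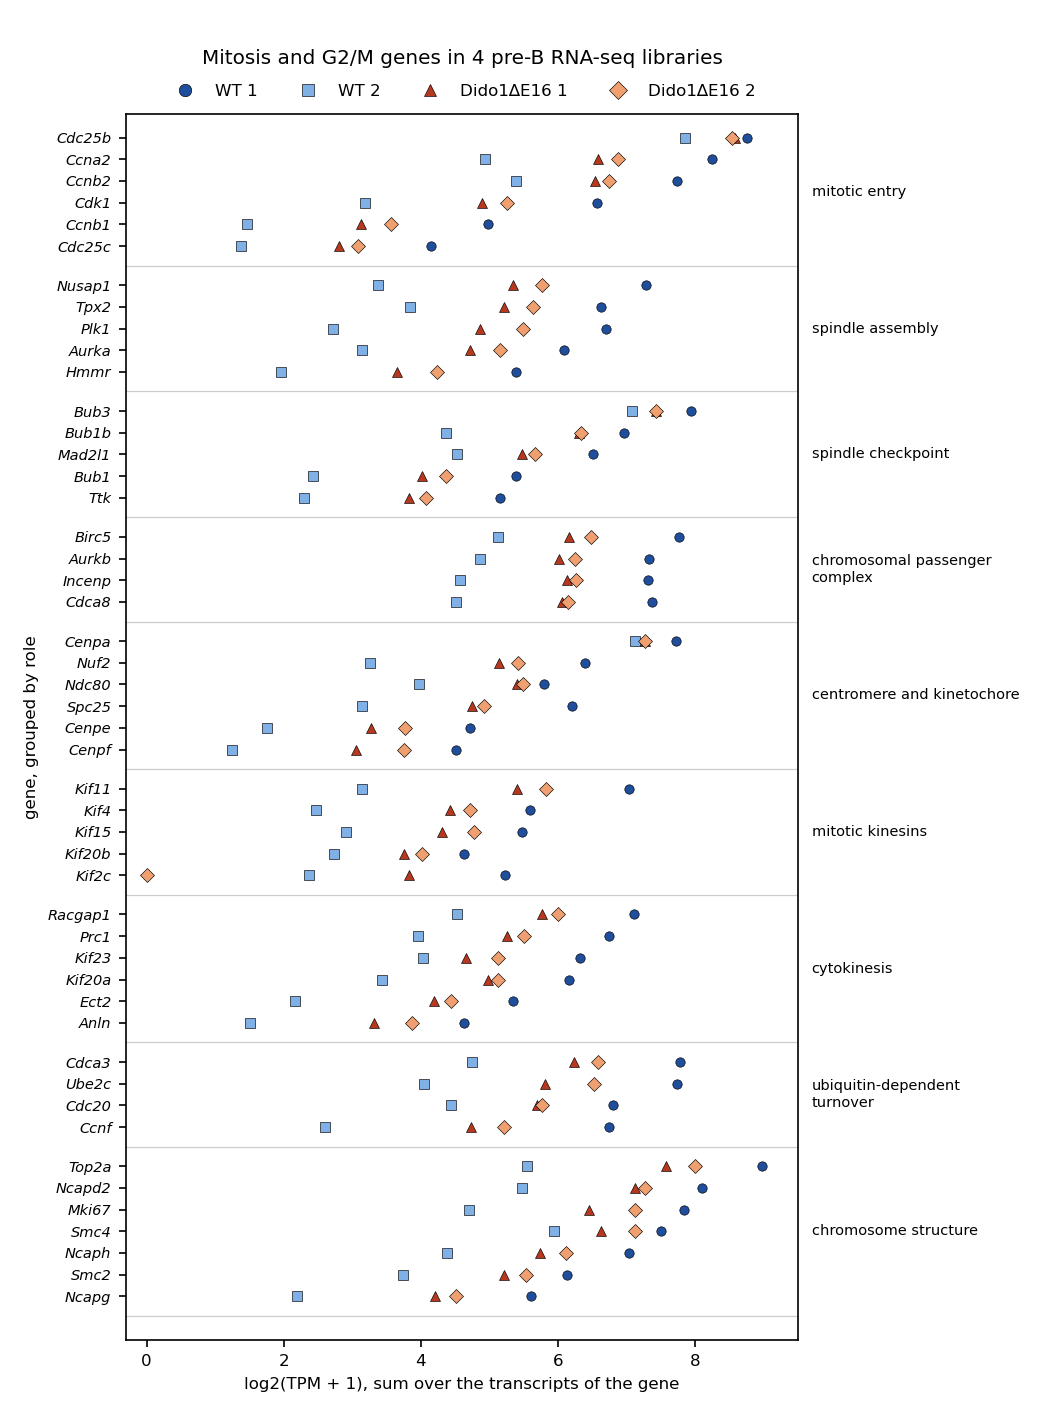
Level of each of the 48 genes as log2(TPM + 1) on the horizontal axis, with 1 row per gene grouped by role and 1 symbol per pre-B library. WT replicate 1 (dark circles) lies furthest right in all 48 rows and WT replicate 2 (light squares) furthest left in 47, with both Dido1∆E16 libraries (triangles and diamonds) between them in these 47 and the exception, Kif2c, at 0 in Dido1∆E16 replicate 2.

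**Figure D2:**
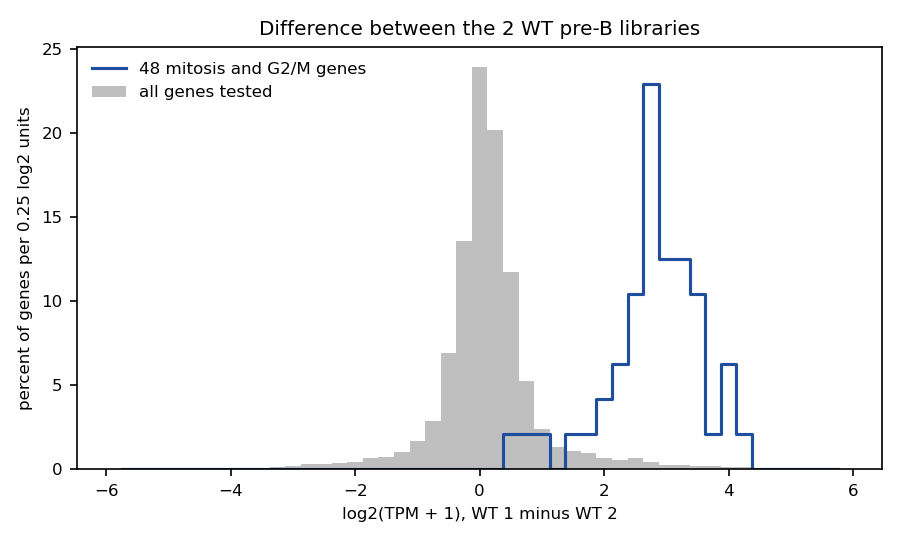
Distribution of the difference in log2(TPM + 1) between WT replicates 1 and 2, as percent of genes per bin, for all 11837 genes tested (grey bars) and the 48 genes (blue line). The median lies at 0.09 for all genes and at 2.85 for the 48 genes.

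Against this spread no genotype difference was resolved. None of the 48 genes was called, none had an unadjusted p under 0.05 in either direction (8.67% of all genes did so upwards and 3.05% downwards), and the lowest adjusted p was 0.709 (limma). In none did both Dido1∆E16 libraries lie above both WT libraries, against 27.2% of all genes, or below both, against 15.5%. The median log2 fold change was 0.24, against 0.07 for all genes, with 43 of 48 values above 0 (58.3% of all genes were above 0). After centring each library on its median, 38 of 48 were above 0, and with FPKM 40. The median standard error was 1.00 for the 48 genes and 0.23 for all genes. The sign depended on the WT library used. With WT replicate 2 alone as control the median log2 fold change was 1.65, 47 of 48 genes were above 0, and 44 had an unadjusted p under 0.05 upwards (16.9% of all genes) and none downwards (4.99%). Both Dido1∆E16 libraries then lay above the lone WT library for 47 of 48 genes, against 51.4% of all genes, and below it for none, against 28.5%. With WT replicate 1 alone it was -1.19, all 48 were below 0, and 39 had an unadjusted p under 0.05 downwards (5.9% of all genes) and none upwards (8.28%). Both Dido1∆E16 libraries then lay below the lone WT library for all 48 genes, against 37.3% of all genes, and above it for none, against 38.2%. In these fits the lone WT library is assumed to vary like the Dido1∆E16 pair, and no gene of the 48 passed the adjusted threshold in either (lowest adjusted p 0.195 and 0.304). Leaving out Dido1∆E16 replicate 1 or 2 gave medians of 0.40 and 0.07, and again no call among the 48, although 1.97% of all genes were called higher without Dido1∆E16 replicate 2.

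**Figure D3:**
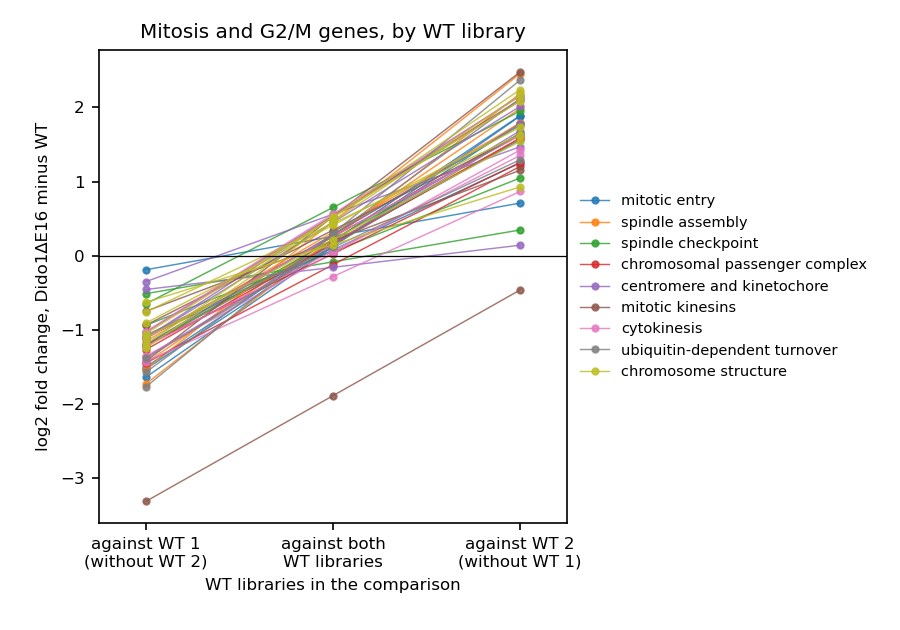
Log2 fold change of Dido1∆E16 against WT on the vertical axis for each of the 48 genes (1 line per gene, coloured by role), with WT replicate 1 alone, both WT libraries, or WT replicate 2 alone as control. All values are below 0 on the left, 43 are above 0 in the middle and 47 on the right.

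Mitotic entry genes covered the widest range of levels. Cdc25b, a phosphatase that activates cyclin-dependent kinases, had the highest mean level of the 48, with 429.4 and 229.9 TPM in WT replicates 1 and 2 and 381.6 and 372.1 TPM in Dido1∆E16 replicates 1 and 2. Its Dido1∆E16 values lay close together between the WT values, and its log2 fold change was 0.26 ± 0.33 (SE, 2 libraries per genotype, as for all fold changes). Ccnb2, a B-type cyclin, had 212.0 and 40.9 TPM in WT and 92.3 and 105.7 TPM in Dido1∆E16 libraries (log2 fold change 0.08 ± 0.82). The other 4 genes of this role, Ccna2, Ccnb1, Cdk1 and Cdc25c, were 10.3-fold to 17.5-fold higher in WT replicate 1 than in WT replicate 2. Ccna2, cyclin A2, had 304.0 and 29.6 TPM in these libraries, and Cdk1 itself 94.1 and 8.08 TPM.

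The 5 spindle assembly genes differed by 2.79 to 3.98 log2 units between the WT libraries, with Plk1, Nusap1 and Hmmr above Aurka and Tpx2. Nusap1, a microtubule-binding protein of the spindle, had 154.8 and 9.34 TPM in WT and 39.6 and 53.6 TPM in Dido1∆E16 libraries, with a log2 fold change of 0.23 ± 1.37. Plk1, the polo-like kinase of centrosome maturation and mitotic entry, had 103.2 and 5.59 TPM in WT and 28.1 and 43.9 TPM in Dido1∆E16 libraries (0.46 ± 1.40). Tpx2, which activates Aurora A on spindle microtubules, had 98.3 and 13.4 TPM in WT and 36.0 and 48.8 TPM in Dido1∆E16 libraries (0.19 ± 0.98). Aurka and Hmmr followed the same order of libraries.

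Spindle checkpoint genes hold anaphase until all kinetochores are attached. Bub3 was the least variable of the 5, with 244.0 and 134.1 TPM in WT and 171.5 and 170.5 TPM in Dido1∆E16 libraries (-0.08 ± 0.32). Bub1b, which encodes the checkpoint kinase BubR1, had the highest log2 fold change of all 48 genes, 0.65 ± 0.91, from 124.3 and 19.7 TPM in WT and 78.1 and 79.8 TPM in Dido1∆E16 libraries. Its Dido1∆E16 values still lay between the WT values. Bub1, Ttk and Mad2l1 had log2 fold changes from 0.06 to 0.28.

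The 4 genes of the chromosomal passenger complex, which corrects attachments at centromeres and later acts at the midzone, had like values. Their difference between the WT libraries spanned 2.46 to 2.85 log2 units. Birc5 (survivin) had 217.2 and 33.8 TPM in WT and 70.7 and 88.6 TPM in Dido1∆E16 libraries (-0.12 ± 0.93). Incenp, the scaffold of the complex, had 157.4 and 22.7 TPM in WT and 68.9 and 75.9 TPM in Dido1∆E16 libraries (0.26 ± 0.96). Aurkb, its kinase, and Cdca8 (borealin) had log2 fold changes of 0.03 and 0.16.

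Among centromere and kinetochore genes, Cenpa stood apart from the others. Cenpa, the histone H3 variant that marks centromeres, had 210.6 and 138.9 TPM in WT and 153.7 and 153.3 TPM in Dido1∆E16 libraries, a 1.52-fold difference between the WT libraries, the smallest of the 48 (log2 fold change -0.16 ± 0.23). Ndc80, the microtubule-binding subunit of the outer kinetochore, had 54.5 and 14.8 TPM in WT and 41.5 and 43.8 TPM in Dido1∆E16 libraries (0.56 ± 0.64). Nuf2 and Spc25, its partners in the NDC80 complex, and the large proteins Cenpe and Cenpf differed by 2.97 to 3.27 log2 units between the WT libraries.

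Mitotic kinesins move or depolymerise spindle microtubules. Kif11, the motor that separates the spindle poles, had 130.7 and 7.82 TPM in WT and 41.4 and 56.0 TPM in Dido1∆E16 libraries (0.53 ± 1.36). Kif4, which shapes chromosomes and the midzone, had 47.4 and 4.53 TPM in WT and 20.6 and 25.2 TPM in Dido1∆E16 libraries (0.54 ± 1.10). This sum includes a 26-base transcript of 0 to 2.55 TPM, and the main Kif4 transcript alone had a log2 fold change of 0.41. Kif2c, a microtubule depolymerase, had 36.3 and 4.18 TPM in WT, 13.2 TPM in Dido1∆E16 replicate 1 and is listed at 0 in replicate 2. Its log2 fold change, -1.88 ± 1.67, rests on that 1 library: without it the value was 0.03. Kif15 and Kif20b had values of 0.35 and 0.20.

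Cytokinesis genes, which build the central spindle and the cleavage furrow, kept the same order of libraries in all 6 cases. Racgap1, a GTPase-activating protein of centralspindlin, had 136.8 and 22.2 TPM in WT and 53.4 and 63.2 TPM in Dido1∆E16 libraries (0.07 ± 0.90). Ect2, the exchange factor that it recruits, had 39.6 and 3.49 TPM in WT and 17.3 and 20.8 TPM in Dido1∆E16 libraries (0.56 ± 1.12). Kif23, the kinesin of the same complex, had 79.1 and 15.3 TPM in WT and 24.3 and 34.0 TPM in Dido1∆E16 libraries (-0.28 ± 0.82). Prc1, Kif20a and Anln had values from 0.04 to 0.53.

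Genes of ubiquitin-dependent turnover held the largest difference between the WT libraries. Ccnf, an F-box protein, had 106.1 and 5.09 TPM in WT, a 20.8-fold difference, and 25.7 and 36.1 TPM in Dido1∆E16 libraries (0.30 ± 1.44). Cdca3, a mitotic entry factor of the same pathway, had 219.7 and 25.9 TPM in WT and 73.9 and 94.6 TPM in Dido1∆E16 libraries (0.13 ± 1.06). Cdc20 had 110.2 and 20.6 TPM in WT and 50.5 and 53.5 TPM in Dido1∆E16 libraries (0.11 ± 0.83). Ube2c, the conjugating enzyme of the anaphase-promoting complex, was 13.7-fold higher in WT replicate 1 than in WT replicate 2.

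Chromosome structure genes included Top2a, topoisomerase II alpha, which untangles sister chromatids. Top2a had 502.6 and 45.7 TPM in WT and 189.0 and 255.0 TPM in Dido1∆E16 libraries (0.52 ± 1.20). Smc4, a core subunit of condensin, had 180.3 and 60.7 TPM in WT and 97.6 and 138.8 TPM in Dido1∆E16 libraries (0.15 ± 0.58). Mki67, the Ki-67 proliferation marker, had 227.9 and 25.0 TPM in WT and 86.3 and 139.0 TPM in Dido1∆E16 libraries. The condensin genes Smc2, Ncapd2, Ncapg and Ncaph had log2 fold changes from 0.22 to 0.46, and all 7 genes of the role kept the shared order of libraries.

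The size of the WT difference was not the same for all members. Cenpa, Bub3 and Cdc25b differed 1.52-fold, 1.82-fold and 1.87-fold between the WT libraries, and Smc4 and Ndc80 2.97-fold and 3.70-fold. At the other end stood Ccnf (20.8-fold), Plk1 (18.5-fold), Ccnb1 (17.5-fold), Kif11 (16.7-fold) and Nusap1 (16.6-fold). Ranked among all genes tested, Cenpa lay at the 84.4th percentile of this difference and Bub3 and Cdc25b at 90.3 and 91.0, while the remaining genes lay between 95.1 and 99.6.

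Transcripts gave the same picture, with some exceptions in how StringTie divided reads among isoforms. The 48 genes had 131 annotated transcripts, of which 65 had a mean of at least 1 TPM and were tested, and 10 of these are listed at 0 in at least 1 library. None was called in limma (0.151% of all 16540 transcripts were) and 1 had an unadjusted p under 0.05, upwards (6.09% of all transcripts, and 2.94% downwards). That transcript was uc056zmx.1 of Spc25, with 9.29 and 7.87 TPM in WT and 23.4 and 24.1 TPM in Dido1∆E16 libraries, with a log2 fold change of 1.37 ± 0.22 and an adjusted p of 0.296. It held 12.8% of the Spc25 level in WT replicate 1 and 100% in WT replicate 2, while the Dido1∆E16 libraries had 91.1% and 81.7%. The remainder was mostly uc008jxu.3, with 58.6 TPM in WT replicate 1, listed at 0 in WT replicate 2, and with 1.59 and 5.37 TPM in Dido1∆E16 libraries. For Plk1, uc009joo.3 took 33.6% and 76.6% of the level in the WT libraries, but 0.347% and 55.0% in those of Dido1∆E16, so the isoform shares differed within both genotypes. The shorter Top2a transcript, uc007lic.1, held from 72.3% to 83.6% in the 4 libraries.

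Genes next to these in the cell cycle were compared by lists chosen by function. Of 66 other mitosis genes, none passed the test in either direction. All 66 were higher in WT replicate 1 than in WT replicate 2 (57.9% of all genes), with a median difference of 2.49 log2 units. Both Dido1∆E16 libraries lay between the WT libraries for 57 of the 66 genes (21.4% of all genes). Their median log2 fold change was 0.12. The highest value, 1.72 ± 1.68, belonged to Cenph (27.4 TPM in WT replicate 1, listed at 0 in WT replicate 2, 15.4 and 17.7 TPM in Dido1∆E16 libraries) and the lowest, -1.90 ± 1.27, to Cenpp (20.6 and 2.80 TPM in WT, 4.88 TPM in Dido1∆E16 replicate 1 and listed at 0 in replicate 2). Of 40 DNA replication genes none was called, and their WT difference was smaller, with a median of 1.34 log2 units. It passed 4-fold for 9 of the replication genes (3.25% of all genes), against 41 of the 48 mitosis genes. The replication genes shared much of the pattern. WT replicate 1 was above WT replicate 2 for 39 of the 40 (57.9% of all genes), by at least 2-fold for 34 (8.07%). Both Dido1∆E16 libraries lay between the WT libraries for 36 (21.4% of all genes), and 18 had the whole order of libraries (7.5%). The median log2 fold change of the replication genes was 0.12. Values ran from -0.50 for Cdc45 to 0.67 for Chaf1b, a histone chaperone subunit. Cdc45, a helicase factor, is listed at 0 in WT replicate 2 and Dido1∆E16 replicate 2.

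Regulators of mitotic transcription varied less as a group. Of 21 genes, none was called and 1 had an unadjusted p under 0.05, downwards (3.05% of all genes, limma). Both Dido1∆E16 libraries lay below both WT libraries for 5 genes (15.5% of all genes) and above both for 1 (27.2%). The median difference between the WT libraries was 0.67 log2 units. Foxm1, the forkhead activator of late cell cycle genes, had 128.1 and 22.6 TPM in WT and 43.4 and 55.3 TPM in Dido1∆E16 libraries (log2 fold change -0.14 ± 0.86), the order of libraries of the 48 genes. Mybl2, which encodes B-Myb, had 33.0 and 7.22 TPM in WT and 28.6 and 21.6 TPM in Dido1∆E16 libraries (0.63 ± 0.74). Lin54, the MuvB subunit that contacts CHR letters, had 17.5 and 9.29 TPM in WT and 10.8 and 12.2 TPM in Dido1∆E16 libraries (-0.15 ± 0.36). Tfdp1, an E2F partner, had the highest value of the list, 0.64 ± 0.61. Nfyc, a subunit of NF-Y, had the lowest, with 76.1 and 69.9 TPM in WT and 57.1 and 52.7 TPM in Dido1∆E16 libraries, with a log2 fold change of -0.40 ± 0.14 and an adjusted p of 0.392 (limma).

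Markers of other cells and stages also differed between these libraries. The 8 markers of pro-B and large pre-B cells (Igll1, Vpreb1, Dntt, Kit and others), stages that include dividing cells, summed to 1022 and 680 TPM in WT and 3072 and 2044 TPM in Dido1∆E16 libraries. They thus had both the WT order of the mitosis genes and, unlike them, Dido1∆E16 values above both WT values in sum. By gene, both Dido1∆E16 libraries lay above both WT libraries for 6 of 8, against 27.2% of all genes. An unadjusted p under 0.05 upwards was found for 6 of 8, against 8.67% of all genes (lowest adjusted p 0.152, limma). The lowest log2 fold change among the 8 was 0.06. The 12 neutrophil and monocyte markers summed to 252 and 2246 TPM in WT and 1096 and 9971 TPM in Dido1∆E16 libraries, with Ctsg and Ltf at 0 in WT replicate 1. The 8 erythroid markers found summed to 485 and 1166 TPM in WT and 870 and 9920 TPM in Dido1∆E16 libraries. Car1 was at 0 in all 4 libraries, Gata1 in both WT libraries and Dido1∆E16 replicate 2, and Klf1 in both WT libraries. WT replicate 1, with the highest mitosis gene levels, thus had the lowest levels of both lists. The other libraries did not follow an inverse order. Dido1∆E16 replicate 2, highest in both lists, had 3216 TPM of the 48 genes, against 1189 TPM in WT replicate 2. Mature B-cell markers summed to between 1414 and 1715 TPM and plasma cell markers to between 594 and 908 TPM (Tnfrsf17 at 0 in all). T and NK cell markers summed to between 4.86 and 27.9 TPM, with Cd3e, Cd3g, Cd4 and Cd8a at 0 in all 4 libraries. The part of these cells in the values of the 48 genes was not tested.

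**Figure D4:**
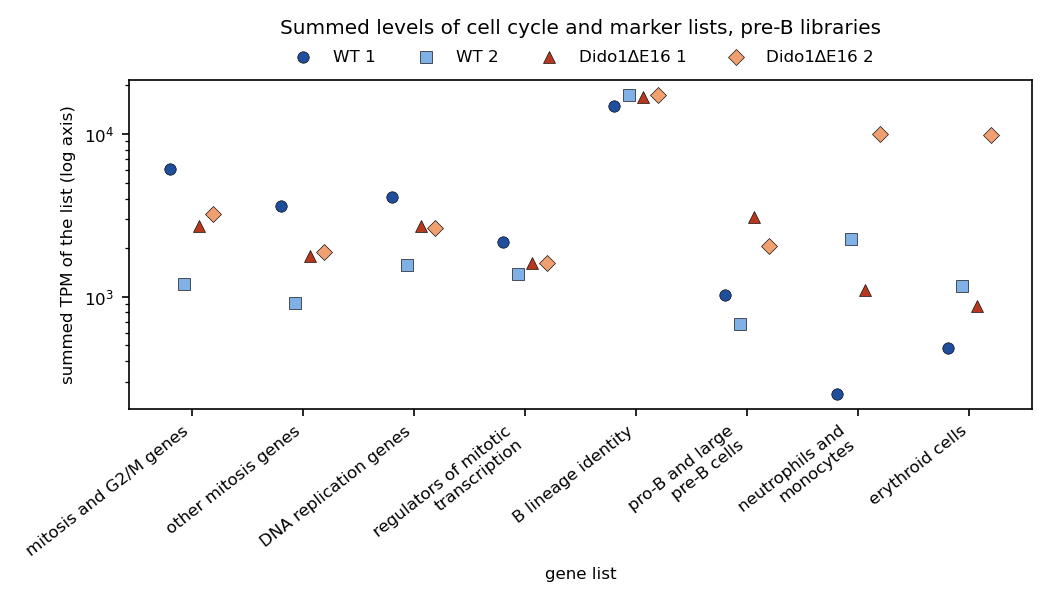
Summed TPM (log axis) of the 48 genes, of 3 other cell cycle lists and of 4 marker lists in each of the 4 pre-B libraries, with 1 symbol per library. WT replicate 1 is highest and WT replicate 2 lowest for the cell cycle lists, while neutrophil and erythroid lists are lowest in WT replicate 1 and highest in Dido1∆E16 replicate 2.

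In LSK cells, most of these promoters were open in both genotypes. A MACS2 peak annotated as promoter (from 1000 bp before to 200 bp after a start site) was called for 39 and 44 of the 48 genes in WT replicates 1 and 2, and for 38 and 39 genes in the corresponding Dido1∆E16 libraries. LSK libraries are other samples than the pre-B libraries of the same number. In percent these are 81.2 and 91.7 for WT, then 79.2 and 81.2 for Dido1∆E16, against 36.2, 46.7, 29.1 and 29.2 for all genes, and 65.2, 76.9, 57.6 and 55.7 for genes tested in pre-B cells. The difference between genotypes was -6.25 percentage points (86.5% ± 7.37 in WT and 80.2% ± 1.47 in Dido1∆E16, SD, n = 2; exact two-sided permutation p = 0.667, where 2 against 2 libraries cannot go below 0.333). WT replicate 2, with the highest count, was the deepest library, and WT replicate 1, with 39 genes, the shallowest. The difference was 0 points with HOMER peaks, and 8.33 points in the other direction with equal numbers of the best peaks taken from each library. A peak in all 4 libraries was called for 32 of 48 genes (66.7%), against 23.2% of all genes and 46.4% of genes tested in pre-B cells.

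Few promoter peaks of these genes were absent from the Dido1∆E16 libraries. Both WT libraries shared 40 promoter regions of 39 of these genes, and 1 of the 40 had no overlapping peak in either Dido1∆E16 library (2.5%, exact Clopper-Pearson 95% interval 0.0633% to 13.2%, counting error only), against 15.0% of the regions of all genes and 9.78% of those of genes tested in pre-B cells. With equal numbers of the best peaks it was 0 of 32 regions, against 2.66% of all regions. By gene, a peak in both WT and neither Dido1∆E16 library was called for 1 of 48, against 5.14% of all genes and 5.85% of those tested in pre-B cells. The gene and the region were Racgap1 (chr15:99651510-99651894 in WT replicate 1), which covers the printed promoter stretch. Its peak ranked at 18.3% and 75.0% of the peak scores of WT replicates 1 and 2, so it was among the weaker peaks of the first, and HOMER called a promoter peak of the gene in Dido1∆E16 replicate 1. No gene had a peak in both Dido1∆E16 and neither WT library (0.0693% of all genes and 0.152% of those tested in pre-B cells did). Smc4 was the only gene without an annotated promoter peak in any library, against 51.2% of all genes and 19.4% of those tested in pre-B cells, and a peak at its start site, present in all 4 libraries, is annotated to the neighbouring gene Ift80. The same held for Cdca8, Ncapd2, Cdca3, Ncapg and Smc2 in some libraries. Counted by position instead, 42 and 48 genes of WT and 41 and 43 genes of Dido1∆E16 libraries had a peak.

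The best promoter peak of these genes ranked high within each library. The median rank by score, in percent of all peaks of the library, was 86.4 and 91.0 for WT, then 78.5 and 81.1 for Dido1∆E16, against 70.4, 79.8, 62.8 and 63.9 for all genes with a promoter peak. For genes tested in pre-B cells that had a promoter peak, it was 74.1, 84.5, 64.7 and 66.7. The difference between genotypes was -8.90 percentage points (88.7 ± 3.27 in WT and 79.8 ± 1.81 in Dido1∆E16, SD, n = 2; exact two-sided permutation p = 0.333, the smallest possible). Ranks depend on how many weaker peaks were called, and the WT libraries had 27352 and 57739 peaks against 13208 and 16329. Ccna2, Cenpf and Mad2l1 had peaks ranked between 97.8% and 99.9% in all 4 libraries. The proliferation marker Mki67 had a weak peak at the opposite end, at 2.77%, 58.1% and 4.71% in WT replicates 1 and 2 and Dido1∆E16 replicate 1, and none in Dido1∆E16 replicate 2.

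**Figure D5:**
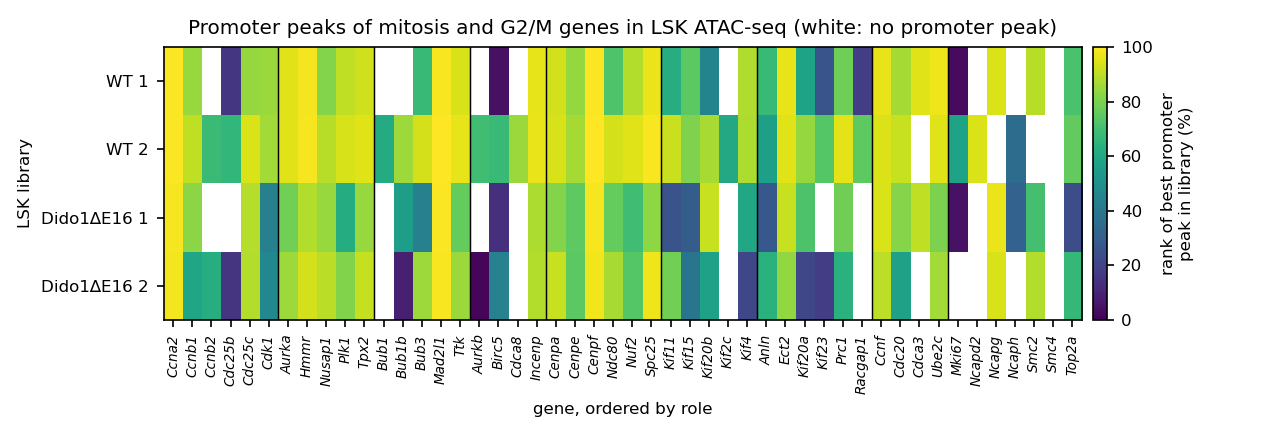
Rank of the best promoter peak of each of the 48 genes among all MACS2 peaks of its LSK library, in percent by score (colour scale, 100 is the best), with genes ordered by role on the horizontal axis, libraries in rows and white where no promoter peak was called. 32 genes have a peak in all 4 libraries, Racgap1 alone has one in both WT and neither Dido1∆E16 library, Bub1, Cdca8, Kif2c and Ncapd2 have one in WT replicate 2 only, and Smc4 has none.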

How the data were processed

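RNA-seq reads were aligned by the authors to GRCm38/mm10 with BWA-MEM 0.7.15, duplicates were removed, and StringTie quantified UCSC known transcripts. The deposited annotation files give TPM and FPKM per transcript. TPM were summed per gene, using the authors' transcript symbols completed with GENCODE M21 names (at least 50% of exonic bases on the same strand; 97.4% of the symbols that could be compared were equal). Genes with a mean of at least 1 TPM were tested on log2(TPM + 1) with limma 3.58.1 (lmFit, eBayes with a trend, R 4.3.3), Benjamini-Hochberg adjusted over all genes, with genotype as the only term. Fold changes are on this scale and understate changes of low genes. An exact 0 can be a failed StringTie estimate. TPM keep no read depth, so no counting interval is given for them.

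LSK ATAC-seq peaks were called per library by the authors with MACS2 and HOMER and annotated with ChIPseeker. The deposited MACS2 score was used only as a rank within a library, and HOMER peaks only by position. Of the deposited table of log2 normalised tag counts at selected regions, only library tag totals were used. The authors' comparison columns (log2 fold changes and p-values) were not used. Shares and ranks were compared over libraries by exact two-sided permutation tests (scipy 1.17.1). The limma fit and the rules for overlapping peaks were checked on simulated data. The simulated spread of a gene followed its mean level, so this check does not cover the wider spread of the mitosis genes.

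The genes, lists and tests were chosen with earlier results of these data known. In each role, values of every library are printed for the genes with the highest mean TPM and with the highest and lowest log2 fold change, and in the other lists for those with the highest and lowest, plus Foxm1, Mybl2 and Lin54. Ccna2, Cdk1, Mki67 and the transcripts of Plk1, Spc25 and Top2a were added after their values were seen. Alternatives were another pseudocount, no filter, FPKM, median centring, immunoglobulin genes left out, no trend, a replicate block, the authors' symbols only, leaving out each library, and other peak sets. Gene sequences are from RefSeq. Some marker genes are not reported here and were left out of the marker sums.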

Additional observations from a re-analysis of the deposited data

How the results depend on the processing

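Calls over all genes were unstable, and values of the mitosis genes depended mainly on which library was left out. Genes called higher numbered 3 as reported, 0 with a pseudocount of 0.1, 0 with no filter on low values, 75 with eBayes without a trend and 6 with the authors' symbols only, a setting added after the data were seen, and those called lower 3, 0, 0, 13 and 3. With a replicate block, 0 genes were called higher and 0 lower, and 1 of the 48 genes and 1 of their transcripts had an unadjusted p under 0.05 downwards. Same-numbered libraries did not deviate together (r = 0.053 across 11837 genes, which are no independent replicates). This r compares 1 difference within each genotype, so it cannot decide whether the numbers mark a shared batch. The labels do not say so either, and the RNA-seq block says nothing of the strength of an effect. A replicate block of the ATAC-seq libraries, added after the data were seen, left the share difference at -6.25 (-2.08 and -10.4 within numbers 1 and 2) and the rank difference at -8.90 (-7.87 and -9.93). The exact two-sided sign-flip p was 0.5 for both, the smallest that 2 pairs allow.

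Leaving out 1 library at a time gave 0 to 233 genes called higher and 0 to 0 lower. Among the 48 genes, 0 to 44 then had an unadjusted p under 0.05 upwards and 0 to 39 downwards, 0 to 47 did not overlap upwards and 0 to 48 downwards (51.4% and 37.3% of all genes in the fits that gave 47 and 48). Their median log2 fold change ranged from -1.19 to 1.65, that of other mitosis genes from -1.08 to 1.24, of regulators from -0.41 to 0.27 and of DNA replication genes from -0.65 to 0.90. For transcripts of the 48 genes, 0 to 38 and 0 to 28 had an unadjusted p under 0.05 upwards and downwards. For ATAC-seq, the share difference ranged from -11.5 to -1.04 percentage points, the WT-shared regions without a mutant peak from 2.5% to 8.70% (15.4% and 30.6% for all genes in the same settings), and the rank difference from -11.2 to -6.59. With peak numbers made equal by score, the share difference was 8.33 and no WT-shared region (0%) lacked a mutant peak, against 2.66% for all genes. With only peaks above the median score, the share difference was -17.7. With HOMER peaks, the share difference was 0, and 0% of WT-shared regions lacked a mutant peak, against 7.96% for all genes.

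Log2 fold changes of named genes changed sign in 36 values and kept it in 88 with a library left out, and changed it in 2 and kept it in 244 under other settings (median centring, Ccnb2 -0.0063 and Racgap1 -0.020). The ranges of those that changed sign were Birc5 (-1.45 to 1.20), Bub1b (-0.65 to 1.95), Bub3 (-0.51 to 0.35), Ccnb2 (-1.09 to 1.25), Ccnf (-1.77 to 2.37), Cdc20 (-1.07 to 1.29), Cdc25b (-0.19 to 0.71), Cdca3 (-1.38 to 1.65), Cenpa (-0.45 to 0.14), Ect2 (-1.03 to 2.15), Incenp (-1.11 to 1.63), Kif11 (-1.42 to 2.48), Kif23 (-1.43 to 0.87), Kif2c (-3.80 to 0.028), Kif4 (-1.03 to 2.104), Ndc80 (-0.35 to 1.47), Nusap1 (-1.73 to 2.19), Plk1 (-1.53 to 2.45), Racgap1 (-1.22 to 1.35), Smc4 (-0.63 to 0.93), Top2a (-1.19 to 2.24), Tpx2 (-1.21 to 1.58), Cdc45 (-3.69 to 2.70), Cenph (-0.69 to 4.13), Foxm1 (-1.37 to 1.08), Lin54 (-0.57 to 0.27), Mybl2 (-0.40 to 1.65) and Tfdp1 (-0.22 to 1.496). The cause of these changes was not tested.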
